A study of Labroides dimidiatus with 23 samples.

Results

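Chromosome 24 is the shortest of the 24 numbered chromosomes of the cleaner wrasse, Labroides dimidiatus, and carried one of the densest sets of H3K27ac peaks in the forebrain. Up to the last peak in any list it measured 8.94 Mb, which is 1.24% of the summed length of the numbered chromosomes. Its members are 798 of 52979 consensus regions, or 1.51%, and they held 1.81% of all bases in regions. A consensus region is a stretch of 200 bp or more under the broad peaks of at least 3 of 22 libraries, with neighbouring stretches merged where 200 bp or less parts them. The shortest member measured 206 bp, and 30 shorter pieces of up to 199 bp were left out. The chromosome was chosen because a high share of its bases lay under peaks in these same lists, so every comparison of its density with other chromosomes is a description and has no test.

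H3K27ac is acetylation of lysine 27 on histone H3, which acetyltransferases of the p300 and CBP family deposit on nucleosomes at active promoters and enhancers. Most acetylated stretches span a few nucleosomes, while long domains are known for joining many neighbouring regulatory elements, often at genes strongly expressed in the tissue. CUT&RUN maps the mark by binding an antibody in permeabilised tissue and letting a tethered nuclease release the chromatin around it for sequencing. The cleaner wrasse is a reef fish that removes parasites from client fish and meets many clients repeatedly.

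Adult fish were either made familiar with a client before a social preference assay (familiar) or met both clients in the assay for the first time (control). The title of each library also carries the number 30 or 120, for which the labels give no unit. Of 23 forebrain libraries, 11 bear the label 30 (6 familiar, 5 control) and 12 the label 120 (6 of each). No label gives age beyond adult, sex, strain, genotype or a pool of fish, and the tissue is whole forebrain, so that changes in acetylation within a cell type and changes in the share of a cell type cannot be told apart. Genes and cell type markers on chromosome 24 were not analysed here, and the label forebrain was therefore not checked against markers.

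Familiar 30 replicate 2 stood apart, with 7075 peaks over the numbered chromosomes against 34686 to 48246 in the other 22 libraries. The rule for regions does not use it, and it is given apart in what follows. Familiar 120 replicates 3 and 4 had the lowest cover of the other chromosomes, 9.27% and 9.61%, against 10.8% to 13.1% in the other 20 libraries. The lists give no numbers of reads, so that read depth is unknown and cover describes the lists of called peaks and not the amount of acetylation. Whether depth accounts for any difference between libraries was not tested. The numbers that open the titles, read as fish numbers, fall into ranges from 17 to 29, 43 to 59 and 69 to 80. Control 30 has no library in the first of these, and familiar 120 replicates 3 and 4 both lie in the second.

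In the 22 libraries, 18.96% ± 1.71 (SD, n = 22) of chromosome 24 lay under peaks, from 14.1% in familiar 120 replicate 3 to 21.1% in control 120 replicate 4. The other 23 numbered chromosomes had 12.06% ± 1.01 (SD, n = 22) of their bases under peaks, from 9.27% to 13.1%. The ratio of both values within a library was 1.572 ± 0.0639 (SD, n = 22) and ranged from 1.47 to 1.70. Chromosome 24 was higher in every one of the 22 libraries, and its lowest value lay above the highest value of the others. Chromosome 24 ranked first of 24 in 8 libraries and the second in 14, and the other leading chromosome was chromosome 21, at 19.1% on average. The next chromosome below was chromosome 17, at 14.8%. In familiar 30 replicate 2, which the rule did not use, chromosome 24 had 0.847% of its bases under peaks and ranked the third, with chromosome 21 first at 0.903% and a median of 0.636% over the others.

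**Figure D1:**
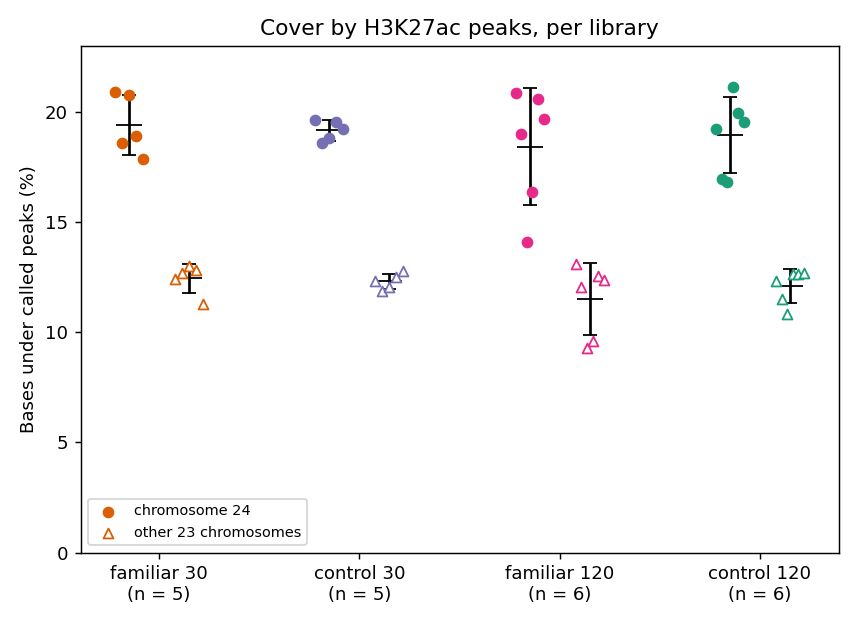
Percent of bases under called H3K27ac peaks on chromosome 24 (circles) and on the other 23 numbered chromosomes (open triangles) in each of 22 libraries, by group. Horizontal marks are group means and bars are the SD. Every circle, from 14.1% to 21.1%, lies above every triangle, from 9.27% to 13.1%.

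The density came from more regions and from longer ones. Chromosome 24 held 89.3 regions per Mb, the third of 24, where the others ranged from 61.5 to 89.7 with a median of 73.5. Mean region length was 3026 bp, the second of 24, where the others ranged from 2164 to 3108 bp. Chromosome 20 had 89.6 regions per Mb but a mean length of 2401 bp, and chromosome 17 had 2837 bp but 77.1 regions per Mb. High values of both measures met on chromosomes 21 and 24. The median length differed less, at 1350 bp on chromosome 24 against 1282 bp over all regions, since the mean is set by a small number of long domains.

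**Figure D2:**
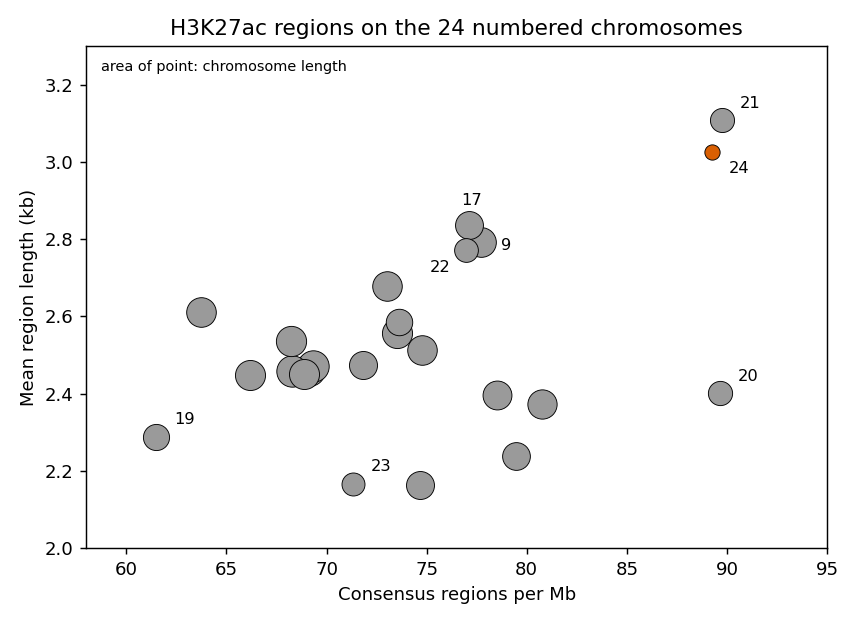
Consensus regions per Mb against mean region length in kb for the 24 numbered chromosomes, with the area of a point in proportion to chromosome length. Chromosome 24 (orange, 89.3 per Mb and 3026 bp) lies beside chromosome 21 (89.7 per Mb and 3108 bp) and apart from the other 22.

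By length, the 798 regions comprised 308 under 1 kb, 299 of 1 to 3 kb, 149 of 3 to 10 kb and 42 of 10 kb or longer. The 42 longest made up 5.26% of the regions but 38.5% of the bases in regions, 931 kb in all. Per Mb, chromosome 24 had 4.70 regions of 10 kb or longer, where chromosome 21 had 5.74 and the median of the others was 2.86. Regions of that length took up 10.4% of the chromosome, against a median of 5.32% elsewhere. Shorter regions took up 16.6%, against a median of 12.7% elsewhere, so both kinds of region were denser than on most chromosomes. The excess was larger for the long domains in relation to the median of the others.

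Single peaks were also broad. A library listed 709.9 ± 42.9 peaks (SD, n = 22) on chromosome 24, from 607 to 791, which is 79.4 per Mb against 61.6 per Mb on the other chromosomes. Their mean width was 2386 ± 148 bp (SD, n = 22) against 1959 ± 102 bp elsewhere, and it was higher on chromosome 24 in 22 of 22 libraries. By mean width chromosome 24 ranked first in 20 libraries and no lower than the third in the others.

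The fold enrichment the authors deposited, 1 ratio of signal to background for each whole peak, differed little. The median fold over the peaks of chromosome 24 was 2.82 ± 0.0679 (SD over 22 libraries) against 2.73 ± 0.0613 on the other chromosomes. Chromosome 24 was higher in 22 of 22 libraries, by 0.0942 ± 0.0362. Within peaks under 1 kb the difference was 0.0339 ± 0.0314 and was above 0 in 19 of 22 libraries. Within peaks of 3 kb or longer it was -0.0696 ± 0.130 and above 0 in 8 of 22 libraries. Within peaks of 1 to 3 kb it was 0.0214 ± 0.07005 and above 0 in 16 of 22 libraries. Whether the width of its peaks accounts for the higher median fold of chromosome 24 in the whole list was not tested. The share of peaks with a deposited -log10 q of at least 5 was 30.7% ± 4.44 on chromosome 24 and 29.1% ± 3.54 elsewhere, and it was higher on chromosome 24 in 18 of 22 libraries.

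Chromosome 24 had few long stretches without a consensus region. Whether such stretches lack the mark cannot be told from lists of called peaks. Between neighbouring regions lay 797 gaps with a median of 3786 bp, close to the median of 4026 bp for the other chromosomes, and 246 of the gaps, 30.9%, were under 2 kb. The stretches before the first region, which starts at 64668, and after the last, which ends at 8845129 of 8938739 bp, are not counted as gaps on this or, likewise, on other chromosomes. The 15 gaps of 50 kb or longer added up to 1059 kb, or 11.9% of the chromosome. That was the lowest share of the 24 chromosomes, which otherwise ran from 14.01% on chromosome 21 to 39.2% on chromosome 19. The longest gap, from 7527012 to 7637397, measured 110 kb, and the longest gaps of the other chromosomes measured 199 kb to 1165 kb. A short chromosome has fewer gaps in all, and how far this goes with its shorter longest gap was not tested. Outside the gaps of 50 kb or longer, 21.5% of chromosome 24 lay under peaks, against 22.3% on chromosome 21 and a median of 16.6% over the others. The chromosome therefore stood high also outside its long gaps.

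The next longest gaps ran from 4632615 to 4732767 (100 kb), from 4872733 to 4968593 (95.9 kb), from 7638443 to 7728871 (90.4 kb) and from 1280323 to 1351365 (71.04 kb). The first and the fourth in length were neighbours, parted by a region of 1045 bp from 7637398 to 7638442 that was present in 10 of 22 libraries. A region is called present in a library whose peaks cover at least 50% of it. The gaps are not wholly empty of peaks: 4 libraries listed some peak within the longest, and no library covered more than 0.324% of it.

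Along the chromosome, cover by peaks was concentrated in the interior and low at both ends. Mean cover in windows of 1 Mb was 10.7% ± 1.16 in the first, 28.9% ± 2.24 in the second, 21.8% ± 3.29 in the third, 25.9% ± 2.18 in the fourth, 21.7% ± 1.92 in the fifth, 18.1% ± 1.22 in the sixth, 23.8% ± 3.16 in the seventh, 9.11% ± 1.54 in the eighth and 10.2% ± 1.31 in the last (SD, n = 22). The window from 1 to 2 Mb was the highest in 20 of 22 libraries, and the window from 3 to 4 Mb in the other 2. Of the first 8 windows, that from 7 to 8 Mb was the lowest in 21 of 22 libraries and that from 0 to 1 Mb in 1. Elsewhere in the genome 698 windows of that size had a median of 10.98%, and 21 of them, 3.01%, exceeded the highest window of chromosome 24. The interior windows were thus high but not beyond those of other chromosomes, and the 3 lowest windows were close to the genome's median.

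Without its first and last Mb chromosome 24 had 21.4% of its bases under peaks, the highest value of the 24 chromosomes, with chromosome 21 next at 20.1%. These ends are a larger part of chromosome 24, at 8.94 Mb, than of any other, at 20.3 Mb or longer, so the comparison is not on a like basis. Over whole chromosomes chromosome 21 was higher, at 19.1% against 18.96%. The first Mb, at 10.7%, and the last, at 10.1%, each ranked the fifth, where the medians of the others were 4.62% and 5.88%. When the other chromosomes were divided into 67 stretches of the length of chromosome 24, the stretches ranged from 4.66% to 24.8% with a median of 13.0%. Of these 6 had more cover than chromosome 24, 1 of them on chromosome 21. Stretches as dense as the whole of chromosome 24 therefore also occurred inside longer chromosomes.

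**Figure D3:**
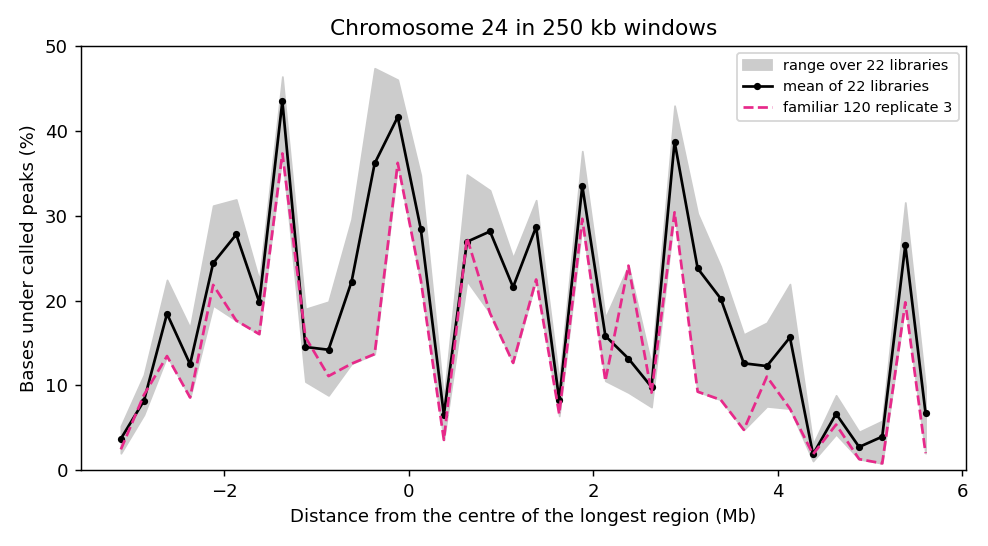
Percent of bases under called peaks in 250 kb windows of chromosome 24, plotted by distance in Mb from the centre of its longest region. The line with points is the mean of 22 libraries, the grey band their lowest to highest value, and the dashed line familiar 120 replicate 3. Means run from 1.88% to 43.5%, and the right end holds 5 windows under 7% and a window at 26.5%.

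At a scale of 250 kb cover varied widely between neighbourhoods of the chromosome. The highest means were 43.5% ± 2.55 from 1.75 to 2.0 Mb, 41.6% ± 2.38 from 3.0 to 3.25 Mb and 38.7% ± 3.09 from 6.0 to 6.25 Mb (SD, n = 22). The lowest were 1.88% ± 0.464 from 7.5 to 7.75 Mb, 2.74% ± 0.827 from 8.0 to 8.25 Mb and 3.71% ± 0.825 from 0 to 0.25 Mb. Dense and sparse windows could adjoin: from 3.5 to 3.75 Mb cover was 6.53% ± 1.17, and in the next window it was 26.9% ± 3.87. Near the right end, the window from 8.5 to 8.75 Mb had 26.5% ± 3.03 while its neighbours had 3.96% ± 1.02 and 6.75% ± 1.86.

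The right end differed from the rest in how widely its regions were shared. The last 2 windows of 1 Mb, from 7 Mb onward, held 157 of the 798 regions, 89 and 68, where the other 7 windows held 78 to 121 each. Of those 157, 2 were present in all 22 libraries, or 1.27%. Of the 641 regions before 7 Mb, 96 were, or 15.0%. Regions of 10 kb or longer numbered 3 in the former and 39 in the latter. Mean region length was 1785 and 2168 bp in the 2 windows at this end, and 4768 bp in the window from 1 to 2 Mb. Both shares depend on familiar 120 replicates 3 and 4, but the share at this end was lower also without them. In that case 14 of the 157 regions, or 8.92%, and 130 of the 641, or 20.3%, were present in all of the other 20 libraries.

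The longest region, from 3192287 to 3292157, measured 99.9 kb and had peaks over 92.3% ± 4.13 of its bases (SD, n = 22), with values from 79.6% to 97.1%. In the 5 familiar 30 libraries the values were 95.5%, 94.6%, 94.0%, 96.7% and 89.3% in replicates 1, 3, 4, 5 and 6. In the control 30 libraries they were 97.1%, 91.4%, 90.2%, 93.8% and 89.1%. In the familiar 120 libraries they ranged from 79.6% to 95.5% with a median of 92.9%, and in the control 120 libraries from 91.1% to 95.7% with a median of 93.4%. The 4 groups overlapped, and the lowest values belonged to familiar 120 replicates 3 and 4, at 79.6% and 83.7%. The strongest peak touching it in each library had a deposited fold with a median of 5.31 over the libraries, at the median percentile 94.8 of a library's list. Median folds and percentiles given below for other regions were formed in the same way, from the strongest peak in each library.

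The peak caller divided that domain differently from library to library. It was listed as 1 to 12 peaks, with a median of 4, and the longest peak within it ran from 22.2 kb in familiar 30 replicate 6 to 96.5 kb in familiar 30 replicate 5, where a single peak spanned nearly all of it. The most divided list was that of familiar 120 replicate 3, with 12 peaks. The breaks recurred at the same places: in the 1 kb bins centred 0.5 and 2.5 kb to the right of the domain's centre, 19 and 17 of 22 libraries had under 50% of the bin under peaks, and 11.5 kb to the left of the centre 13 libraries did. A region of 29.1 kb, from 3159438 to 3188550, ended 3.7 kb before the domain and was present in 22 of 22 libraries with 89.4% ± 7.45 of its bases under peaks. In familiar 30 replicate 2 the domain held 10 peaks of at most 1.71 kb, over 9.10% of its bases.

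**Figure D4:**
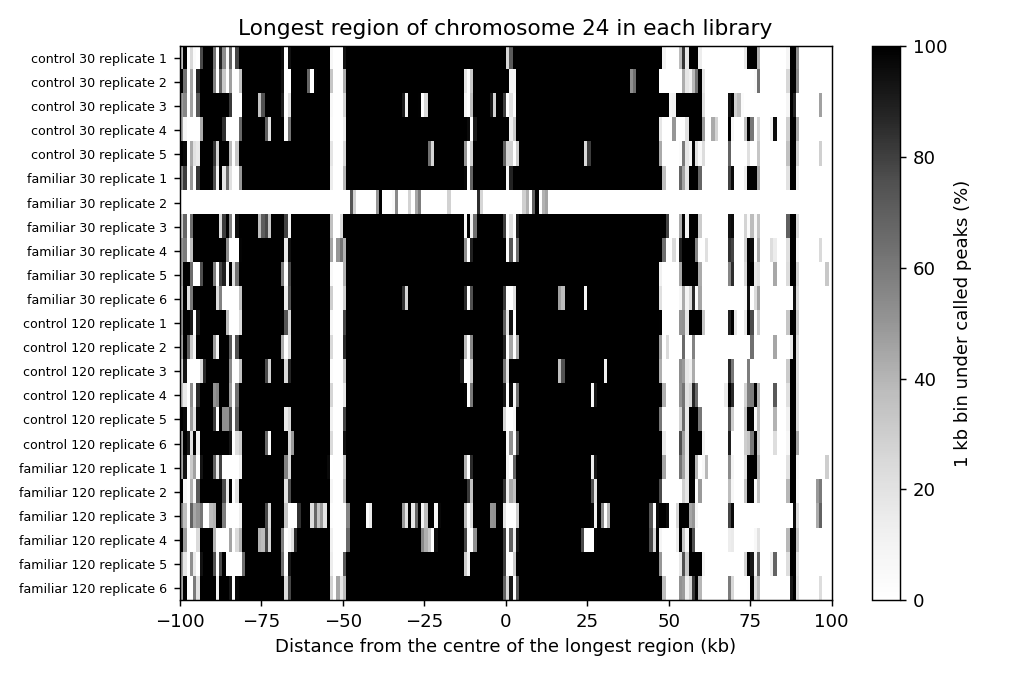
Percent of each 1 kb bin under called peaks in a window of 200 kb around the centre of the longest region of chromosome 24, for all 23 libraries by row. Black bins are wholly covered and white bins hold no peak. In 22 rows a nearly unbroken block runs about 50 kb to either side of the centre with breaks at shared positions, and the row of familiar 30 replicate 2 shows 10 short peaks.

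The 4 next longest regions were also present in every one of the 22 libraries. The region from 1937638 to 1983191 (45.6 kb) had 92.2% ± 5.51 of its bases under peaks, from 75.0% to 100%. The region from 6099192 to 6135083 (35.9 kb) had 91.7% ± 3.73, and 22 of 22 libraries covered at least 80% of it. The region from 4583235 to 4617581 (34.3 kb) had 91.4% ± 6.95, from 64.9% in familiar 120 replicate 3 to 100% (SD, n = 22 each). The region from 8688244 to 8730530 (42.3 kb) was covered less fully, at 80.6% ± 6.47, and 11 of 22 libraries covered at least 80% of it. It was listed as 4 to 8 peaks in every library. It lies within the dense window near the right end described above. Each of the 22 lists gave a peak in all 5 domains with a -log10 q of at least 5.

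The regions with the highest fold enrichment, by the strongest peak touching them in each library, were shorter than the domains. The region from 2090904 to 2092668 (1765 bp) had a median fold of 6.86 and a median percentile of 99.3 within the lists, and peaks covered 72.5% ± 14.01 of it (SD, n = 22). The region from 6021029 to 6022804 (1776 bp) had a median fold of 6.94 at the percentile 99.0 and was present in all 22 libraries. The region from 7830336 to 7836740 (6405 bp) had a median fold of 6.80 at the percentile 99.1. The last of these lies in the sparse window from 7.75 to 8.0 Mb, which had a mean cover of 6.64%. High enrichment thus also occurred where cover by peaks was low. Familiar 30 replicate 2 listed peaks in each of them, over 24.3%, 19.9% and 14.9% of their bases in the same order.

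Of regions of 1 kb or shorter, those with the highest percentiles ran from 1842185 to 1843115, from 143454 to 144205 and from 6012233 to 6013154. Their median fold was 4.66, 4.84 and 4.57, at the percentiles 92.3, 90.7 and 89.9. The first was present in 11 libraries, the second in 16 and the third in 22. The region from 143454 to 144205 lies in the first window of 250 kb, which had a mean cover of 3.71%. Short regions could therefore be strongly enriched in the authors' lists and still be covered by less than 50% in several libraries.

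How widely regions of chromosome 24 were shared depended on the overlap asked for. At 50% of a region, more of them were in every library than elsewhere. Of the 798, 98 were present in all 22 libraries, or 12.3%, the highest share of the 24 chromosomes, against 9.05% on the others together. Chromosomes 21 and 22 came close, at 11.6% and 11.4%. They held 37.7% of the bases in regions on chromosome 24, again the highest share, and the range elsewhere was 18.9% to 32.0%. Their median length was 4656 bp and the shortest measured 584 bp. At the other end, 80 regions, or 10.03%, were present in 3 libraries or fewer, the lowest share of the 24 chromosomes, against 11.9% elsewhere and 10.3% on chromosome 21. Those 80 had a median length of 453 bp and held 2.80% of the bases in regions.

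Longer regions were present in all 22 libraries more often, and within each length class the share was higher on chromosome 24. It was 1.95% against 1.45% elsewhere under 1 kb, 11.7% against 9.25% at 1 to 3 kb, 21.5% against 17.9% at 3 to 10 kb, and 59.5% against 45.2% at 10 kb or longer. These rest on 6, 35, 32 and 25 regions of chromosome 24. The share on chromosome 21 was also above that elsewhere in each length class, though below that on chromosome 24. On chromosome 21 it was 1.77% under 1 kb, 9.95% at 1 to 3 kb and 19.7% at 3 to 10 kb. Presence in 3 libraries or fewer did not follow the same order: at 3 to 10 kb it was 4.03% on chromosome 24 (6 of 149 regions), against 1.73% elsewhere and 0.511% on chromosome 21. When 80% of a region had to be covered, 5 of 798 regions were present in all libraries, or 0.627%, against 0.4275% elsewhere. When any overlap sufficed, 273 were, or 34.2%, against 32.1%, and 5.14% against 5.295% were present in 3 or fewer. With any overlap the difference from the other chromosomes was thus small. Without familiar 120 replicates 3 and 4, 144 members, or 18.05%, were present at 50% in the other 20 libraries, against 13.6% elsewhere.

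**Figure D5:**
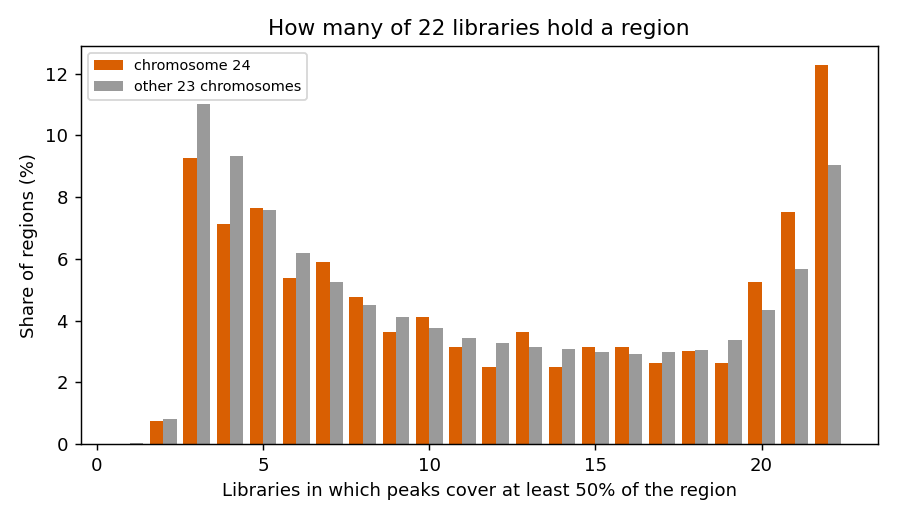
Share of regions in percent by the number of the 22 libraries whose peaks cover at least 50% of the region, for chromosome 24 (orange, 798 regions) and the other 23 numbered chromosomes (grey, 52161 regions). Both have a high bar at 22 libraries, 12.3% and 9.05%, and another at 3 libraries, 9.27% and 11.03%.

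The list of familiar 30 replicate 2 gives a view of the chromosome that the rule did not use. It listed 108 peaks there, with a mean width of 701 bp. Of these, 102 overlapped members in part or whole, a count not given here for the other chromosomes. The 108 peaks touched 69 of 798 members, 8.65%, against 9.54% of the regions on the other chromosomes. Of the 98 members present in all 22 other libraries they touched 43, or 43.9%, against 50.8% elsewhere, and of the 80 in 3 libraries or fewer they touched 0. Of the 42 regions of 10 kb or longer they touched 26, or 61.9%, against 65.0% elsewhere. In that library the share of bases was thus high on chromosome 24, while the share of its regions touched was not.

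The longest of the regions present in the fewest libraries, 2 each, ran from 2250730 to 2253301 (2572 bp), from 2577613 to 2579190 (1578 bp) and from 5795749 to 5796920 (1172 bp). The first had some peak in 17 libraries, with most of it covered in control 120 replicate 5 (95.6%) and familiar 120 replicate 5 (98.3%). The second was covered at 100% in control 30 replicate 4 and at 62.1% in familiar 30 replicate 1. The third was covered at 100% in control 30 replicate 3 and familiar 120 replicate 3, at 42.2% in familiar 30 replicate 4 and at 47.4% in control 120 replicate 4, and at 0% in the other 18 libraries. Control 30 replicate 3, familiar 120 replicate 3 and familiar 30 replicate 4 come from different groups but from a single range of fish numbers, 43 to 59, and share extra regions across the genome. A total of 41 members, 5.14%, were present in 2 or 3 of them and in at most 2 other libraries. On the other chromosomes 5.41% of regions had that pattern. Its share on chromosome 24 was thus near that of the genome.

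Familiar 120 replicates 3 and 4, the libraries with the lowest cover, were lower along most of chromosome 24 but not by a constant factor. Replicate 3 lay below all 20 other libraries in 24 of 36 windows of 250 kb, replicate 4 in 14, and both in 11. From 6.25 to 7.0 Mb replicate 3 had 9.26%, 8.30% and 4.76% in consecutive windows, where the other 20 libraries averaged 24.6%, 20.9% and 13.1%. From 2.75 to 3.0 Mb it had 13.7% where the others averaged 37.6% and none was below 25.1%. From 5.5 to 5.75 Mb it went the other way, with 24.1% against a mean of 12.8% and a highest value of 16.99% among the others. In the window of the longest region it had 36.2% against 42.2%. Of 191 members present in at least 19 of the other 20 libraries, 11 were absent from both replicates 3 and 4, or 5.76%, against 6.15% of such regions elsewhere.

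The first comparison between groups asked whether familiarity with a client went with a different cover of chromosome 24. At the label 30 cover was 20.9%, 18.6%, 20.8%, 18.9% and 17.9% in the familiar libraries (replicates 1, 3, 4, 5 and 6). It was 19.6%, 18.6%, 18.8%, 19.6% and 19.2% in the control libraries. The groups overlapped, with means of 19.4% ± 1.36 (SD, n = 5) and 19.2% ± 0.459 (SD, n = 5). The difference of 0.249 points did not pass the test (two-sided exact permutation test, p = 0.706, adjusted p = 0.882 over 96 tests of 24 chromosomes and 4 contrasts). At the label 120 familiar libraries ranged from 14.1% to 20.9% with a median of 19.3%, and control libraries from 16.8% to 21.1% with a median of 19.4%. The difference of -0.521 points did not pass either (exact permutation p = 0.695, adjusted p = 0.882).

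The second comparison set the label 120 against 30. In control libraries the mean was 18.9% ± 1.71 (SD, n = 6) at 120 and the difference was -0.217 points (exact permutation p = 0.823, adjusted p = 0.929). In familiar libraries the mean at 120 was 18.4% ± 2.66 (SD, n = 6) and the difference was -0.987 points (exact permutation p = 0.498, adjusted p = 0.882). Without familiar 120 replicate 3 the familiar minus control difference at 120 was 0.344 points and the familiar difference between 120 and 30 was -0.121 points. Within fish numbers 43 to 59 the familiar minus control difference at 120 was -4.09 points (2 against 3 libraries), and it was 1.84 points within 17 to 29 (2 against 2) and 0.570 within 69 to 80 (2 against 1). The familiar difference between 120 and 30 was -4.45, -0.993 and 1.73 points in the same order of ranges. At 30, familiar minus control was 0.656 points within 43 to 59 and -0.989 within 69 to 80, and in controls 120 minus 30 was 0.302 and 0.167 points. Each group compared held 1 to 3 libraries within a range, and control 30 had no library within 17 to 29. All but the control contrast between 120 and 30 differed in sign between ranges, and none was tested within them. Over all 24 chromosomes 0% of the tests passed in each of the 4 contrasts, also at an unadjusted p under 0.05. The ratio of chromosome 24 to the other chromosomes takes out only a factor that all chromosomes of a list share. This ratio was 1.56 ± 0.0913 in familiar 30, 1.56 ± 0.0328 in control 30, 1.60 ± 0.0608 in familiar 120 and 1.56 ± 0.0657 in control 120. None of its 4 differences passed (exact permutation tests, adjusted p from 0.953 to 0.960). By the ratio 0% of the 24 chromosomes passed in each contrast, and 4.17% had an unadjusted p under 0.05 in both contrasts of the familiar 120 group, chromosome 24 not among them. The comparisons share libraries with each other.

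Single regions were compared with limma on percent cover over 52924 regions, with all 4 groups in one model and Benjamini-Hochberg adjustment over all of them. Of the 798 members, 0 passed an adjusted p of 0.05 in any of the 4 contrasts or in the interaction, and 0% of all regions passed. At an unadjusted p under 0.05, familiar against control at 30 gave 12 members, or 1.504%, where the background was 3% of all regions. At 120 it gave 29 members, or 3.63%, against 4.35%. Label 120 against 30 gave 19 members in control libraries, or 2.38% against 3.2%, and 25 in familiar libraries, or 3.13% against 4.19%. The interaction gave 25, or 3.13% against 4.15%. In each contrast the members' share was below that of all regions. The contrasts share libraries, and the difference between the shares was not tested.

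The median difference over the members was 0.194 points for familiar minus control at 30 and -2.72 points at 120, where the medians over all regions were 0.444 and -4.13. For 120 minus 30 it was 0.00107 points in control libraries, against 0 over all regions, and -3.33 points in familiar libraries, against -4.81. The negative medians of both contrasts that use the familiar 120 group go with the low cover of its replicates 3 and 4, whose part in them was not tested.

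The region with the smallest p on chromosome 24 ran from 1758845 to 1759109 (265 bp). It was wholly covered in familiar 30 replicates 1, 3 and 4 and had no peak in the other 19 libraries. A member needs peaks of at least 3 libraries, so this region became one only through the group where it was high. Its differences follow from that choice and cannot serve as support for a difference between groups. Familiar minus control at 30 was 60.0 points (SE 16.0, limma adjusted p = 0.929), and 120 minus 30 in familiar libraries was -60.0 points (SE 15.3, limma adjusted p = 0.697). The second value passed the threshold without familiar 30 replicate 6, at -75.0 points with an adjusted p of 0.0435, and over all alternatives its adjusted p ran up to 1.0. The highest fold deposited for its peaks was 2.60, below the median of 2.82 over peaks of the chromosome.

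Other regions near the top of the list were short, and most were at 0% in some libraries of a group and well covered in others. The region from 7935059 to 7935613 (555 bp) had values of 64.3%, 86.1%, 80.2%, 0% and 71.4% in the familiar 30 libraries and 0% in all 5 control 30 libraries. At 120 it had 33.9% in familiar replicate 1 and 0% in the other 5 familiar libraries, and 78.6%, 73.3% and 96.8% in control replicates 2, 4 and 5 with 0% in the other 3. Outside familiar 30 and control 120 it had a peak in only 1 library, so it became a member only through the groups where it was high. Its interaction, which follows from that choice, was -96.2 points (SE 24.8, limma adjusted p = 0.99986). The region from 1698765 to 1699501 (737 bp), with some peak in 17 of 22 libraries, had an interaction of 81.0 points (SE 22.3) with the same adjusted p. The region from 6008349 to 6009026 (678 bp), with some peak in 20 libraries, had a fitted difference of -42.0 points for familiar minus control at 120 (SE 11.8, limma adjusted p = 0.968).

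Of the remaining regions chosen by their p, that from 5512272 to 5513342 (1071 bp) had a difference of -53.5 points (SE 16.4) for familiar minus control at 30. It had a median fold of 3.61 and a -log10 q of at least 5 in 16 libraries, where the other regions chosen by their p had that in 0 or 1. The region from 6267854 to 6268123 (270 bp) was wholly covered in control 120 replicates 1, 3 and 6 and had no peak elsewhere, a difference of -50.0 points (SE 16.1) for familiar minus control at 120. This region, too, became a member only through the group where it was high, so its difference follows from that choice. The regions from 1715449 to 1716268 (820 bp) and from 4514792 to 4515220 (429 bp) were 47.2 points (SE 15.4) and 57.5 points (SE 18.8) higher at 120 than at 30 in control libraries. That starting at 4514792 had some peak in 4 control 120 libraries, 1 familiar 30 library and 1 familiar 120 library. It therefore also became a member only through the group where it was high, and its difference follows from that choice. The region from 316215 to 318233 (2019 bp) differed by -37.4 points (SE 12.5) between 120 and 30 in familiar libraries. None of these passed the limma test (adjusted p from 0.968 to 1.0).

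Windows of 250 kb, which average over many regions, gave a limma fit over 2665 windows. Of the 36 windows of chromosome 24, 0 passed an adjusted p of 0.05 and 0 had an unadjusted p under 0.05 in any contrast. Over all windows 0% passed, and the share at an unadjusted p under 0.05 was 0.338% and 2.93% for familiar against control at 30 and 120. It was 0.563% and 4.09% for 120 against 30 in control and familiar libraries, and 2.18% for the interaction. The smallest p on the chromosome belonged to the densest window, from 1.75 to 2.0 Mb, in the familiar libraries. Mean cover there was 44.9% ± 2.22 at 30 (SD, n = 5) and 42.3% ± 3.20 at 120 (SD, n = 6), -2.54 points between them (SE 1.43, limma adjusted p = 0.811). In control libraries it was 44.6% ± 1.36 (SD, n = 5) and 42.6% ± 2.43 (SD, n = 6), -1.97 points between them (SE 1.43, limma adjusted p = 0.9998).

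The differences of the other windows with the smallest p varied in size, with 0.679 points the smallest and -3.86 points the largest. Familiar minus control at 30 was 2.71 points (SE 2.42) from 3.75 to 4.0 Mb, -1.05 points (SE 1.09) from 5.25 to 5.5 Mb and 0.679 points (SE 0.752) from 3.5 to 3.75 Mb. At 120 it was -1.66 points (SE 0.992) from 5.25 to 5.5 Mb, -2.33 points (SE 1.66) from 4.0 to 4.25 Mb and -1.74 points (SE 1.33) from 3.0 to 3.25 Mb, the window with most of the longest region. In familiar libraries 120 minus 30 was -2.53 points (SE 1.46) from 5.0 to 5.25 Mb and -3.86 points (SE 2.25) from 2.5 to 2.75 Mb. In control libraries it was -1.63 points (SE 1.26) from 2.0 to 2.25 Mb and 1.502 points (SE 1.27) from 0.5 to 0.75 Mb. The interaction was -3.34 points (SE 2.47) from 4.0 to 4.25 Mb, -2.37 points (SE 1.98) from 3.0 to 3.25 Mb and -2.72 points (SE 2.61) from 6.0 to 6.25 Mb. No difference reached 2 times its standard error.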

How the data were processed

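H3K27ac CUT&RUN libraries were made from adult forebrain with input DNA from nuclease digestion, per the labels' protocols. Tools listed in the submitters' processing notes are MACS2, Bowtie2, Picard, SAMtools, FastQC and Trimmomatic 0.39. For the genome build and peak settings, nothing is given in the sources used here. Each deposited list gives, per library, the position of each peak with a score, a fold enrichment (ratio), a -log10 p and a -log10 q, all the authors' own values, used here only to describe, rank or filter peaks. The smallest listed -log10 q was 1, and shallow sequencing shortens a list and its peaks.

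Groups were taken from titles, replicates were numbered in accession order, and the number opening a title was read as a fish number. No label says that libraries are separate fish, and the spread between libraries that p-values measure may be technical. The members, the comparisons and the choice of named regions were made with earlier results of these data known. Named are the 5 longest regions and gaps, the 3 regions of highest fold percentile at any length and at 1 kb or shorter, the 3 longest regions in the fewest libraries, the 3 highest and lowest windows, and the regions and windows of smallest p. The region and windows beside a named gap or domain were chosen after their values were seen.

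Percent cover by peaks was computed per region, window and chromosome with Python 3.11.15, numpy 2.4.6 and pandas 2.3.3, with a chromosome's length taken to its last listed peak. Regions with a mean cover of 5 to 95% and windows with a mean cover of at least 1% were fitted with limma 3.58.1 in R 4.3.3. The fit was tested on simulated data. Cover of a region is bounded and often 0 or 100%, a departure from the model of limma. Chromosome values were compared by exact permutation tests. The alternatives are given at the end.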

Additional observations from a re-analysis of the deposited data

Results flagged for a closer look

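In 140 groups of 5 or 6 libraries, 18 values stood far from the rest of their group by Dixon's criterion, which chance meets in about 1 of 20 groups. That rate is for groups not chosen by their values. Some groups here are of regions named for a small p or for few libraries, so the count cannot be set against it. Of the 18 values, 4 belong to familiar 30 replicate 2, with a chromosome 24 cover of 0.847%, 108 peaks, a mean peak width of 701 bp and a median deposited fold of 3.06. Control 30 replicate 3 listed 768 peaks on the chromosome, more than the other control 30 libraries.

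Among the long domains, familiar 120 replicate 3 was low in the region starting at 1937638, with 75.0% of it covered, and in that starting at 4583235, with 64.9%. In the 1 Mb window from 5 to 6 Mb familiar 120 replicate 4 was low, at 15.2%. In the strongly enriched region starting at 6021029 control 30 replicate 1 was high, at 98.6%.

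The other 9 concern short or rarely called regions, where a peak in 1 library of a group is enough. The region starting at 5795749 was covered in 1 library of each group, at 42.2% in familiar 30 replicate 4, 100% in control 30 replicate 3, 100% in familiar 120 replicate 3 and 47.4% in control 120 replicate 4. The region starting at 7935059 had 0% in familiar 30 replicate 5 and 33.9% in familiar 120 replicate 1. The region starting at 4514792 had 85.3% in familiar 30 replicate 6 and 53.8% in familiar 120 replicate 1, and that starting at 2577613 had 38.5% in familiar 120 replicate 1.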

How the results depend on the processing

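The counts of regions and windows called on chromosome 24 were 0 under every alternative run, with a single region called for 120 minus 30 in familiar libraries (from 0 to 1) when 1 library was left out. That region, starting at 1758845, was a member only through the familiar 30 libraries in which it was covered. With a stricter minimum -log10 q of 5, mean cover was 11.4%, its ratio to the other chromosomes 1.66 and the number of regions 311. Regions present in all libraries numbered 5 at 80% and 273 at any overlap.

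Directions of the group differences in chromosome cover, none of which passed its test, changed in several settings, and the cause was not tested. With all 23 libraries familiar minus control at 30 was -2.85 points and 120 minus 30 in familiar libraries 2.11 points, and the first ratio difference was -0.0388. With the stricter q, familiar minus control at 30 was -0.207 points, and its ratio difference was -0.00753 at 30 and -0.0288 at 120. Without the 3 libraries sharing extra regions, familiar minus control was -0.176 points at 30 and 0.344 at 120, 120 minus 30 in familiar libraries was 0.218, and the ratio difference at 30 was -0.00438. Leaving out 1 library at a time, 120 minus 30 in control libraries ran from -0.653 to 0.204, 120 minus 30 in familiar libraries from -1.47 to -0.121, familiar minus control from -1.01 to 0.344 at 120 and from -0.128 to 0.630 at 30, and the ratio differences from -0.0159 to 0.0248 for 120 minus 30 in control libraries and from -0.0268 to 0.0277 for familiar minus control at 30. The sign of the cover differences changed without familiar 30 replicate 1 or 4 (at 30), familiar 120 replicate 3 (at 120) and control 120 replicate 2 or 3 (in controls).

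Named windows also changed direction. With all 23 libraries, familiar minus control at 30 was -1.91 from 3.75 Mb and -0.534 from 3.5 Mb, 120 minus 30 in familiar libraries was 4.26 from 1.75 Mb, 2.86 from 5.0 Mb and 0.111 from 2.5 Mb, and the interaction was 1.32 from 4.0 Mb, 4.24 from 3.0 Mb and 3.41 from 6.0 Mb. With the stricter q, values were -0.902 from 3.75 Mb at 30, 0.0927 from 3.0 Mb at 120 and 0.562 from 2.5 Mb in familiar libraries. In 100 kb windows, the single window starting at 3.0 Mb had 2.86 for familiar minus control at 120 and 5.22 for the interaction. It covers only a part of the named window of 250 kb, so these values describe a different stretch. No paired analysis was possible because the labels give no replicate numbers shared between groups. With the 3 ranges of fish numbers as a block, 0 regions and 0 windows were called in any contrast, and named differences kept their direction.

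Both of the following were chosen after seeing the data. Without familiar 120 replicates 3 and 4, 144 regions were present in all libraries. Within ranges of fish numbers, signs opposite to those over all ranges were found for cover in familiar minus control at 30 (-0.989 in 69 to 80) and at 120 (1.84 in 17 to 29, 0.570 in 69 to 80), and for 120 minus 30 in controls (0.302 in 43 to 59, 0.167 in 69 to 80) and in familiar libraries (1.73 in 69 to 80). For the ratio they were found in familiar minus control at 30 (-0.0405 in 43 to 59, -0.00575 in 69 to 80) and 120 minus 30 in familiar libraries (-0.0985 in 17 to 29).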
